A study of Mus musculus with 6 samples.

Results

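The 67 genes described here encode the SR proteins, the hnRNPs and core factors of the spliceosome. They are every gene whose symbol begins with *Srsf*, *Hnrnp*, *Sf3a*, *Sf3b*, *U2af*, *Prpf* or *Snrp*. This rule reads symbols and no expression values. They are 67 of 26656 genes listed and fall into 6 families: 11 SR proteins, 20 hnRNPs, 9 SF3A and SF3B subunits, 3 genes of the U2 auxiliary factor, 13 PRP factors, and 11 Sm and U snRNP proteins. Symbols ending in -ps, which mark pseudogenes, were left out.

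Splicing removes introns from precursor mRNA and is carried out by the spliceosome, an assembly of small nuclear RNAs and proteins. The small nuclear RNAs U1, U2, U4 and U5 each carry a ring of Sm proteins, and U1 and U2 carry specific proteins besides. U2 auxiliary factor recognises the end of the intron, SF3A and SF3B hold U2 on the branch point, and PRP factors bring in and rearrange the U4, U5 and U6 particles. SR proteins bind exons through RNA recognition motifs and, through their arginine and serine rich tails, help to recruit this machinery. The hnRNPs coat nascent RNA and often act against SR proteins in the choice of splice site.

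RNA was measured in Neuro-2a (N2a) cells, a mouse neuroblastoma line of WT genotype. Cells were transfected with pLKO.1-shNpm1, a plasmid with an shRNA against *Npm1* (NPM1 KD), or with pLKO.1-shCTR, a plasmid with a non-target shRNA (CTR), and RNA was taken after 72 h (3 days in vitro). Puromycin at 9.3 µg/ml was applied from 24 h after transfection. The protocol states this for the NPM1 KD experiments, without saying whether CTR wells also received it. Each group holds 3 libraries of PCR-amplified cDNA read as long nanopore reads. The description of the experiment counts 3 biological replicates per condition and the treatment protocol counts 2, so that the spread between libraries may be in part technical. A single shRNA was used, so that the loss of *Npm1* cannot be told apart from other effects of this shRNA.

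The values are rlog values, which are on the log2 scale, adjusted for library size and shrunk where a gene has few reads. All values of 1 or more in size were deposited as whole numbers. A single library can therefore place a gene only to the nearest doubling, and a step of 1 between the groups stands for an unrounded difference anywhere above 0 and below 2 on the log2 scale. *Npm1*, the target of the shRNA, was at 10 in each CTR library and at 8 in each NPM1 KD library (−2.0, SE 0.33, limma adjusted p = 3.23e-06). With all 6 libraries, 5752 genes passed the filter on low values. Of these, 4 (0.0695%) rose and 24 (0.417%) fell upon NPM1 KD at a limma adjusted p below 0.05, and 2310 (40.2%) had the same value in every library. Library means over the tested genes lay between 5.27 and 5.31. The library NPM1 KD 1 departed from 2 equal values in the other libraries of its group in 15.4% of tested genes. Each other library did so in 9.13% to 11.9%. Of 13 markers of sympathoadrenal neuroblastoma, 8 passed the filter, with a mean rlog of 6.75 to 7.0 in CTR and 6.12 to 6.50 in NPM1 KD. *Uchl1*, *Hand2*, *Tubb3* and *Stmn2* were present at rlog values of 7 to 9, and *Th* and *Dbh*, which make catecholamines, did not exceed 2. *Chga*, which encodes the granule protein chromogranin A, fell from 7 in each CTR library to 5, 6 and 6 (−1.33, SE 0.34, limma adjusted p = 0.026), and *Isl1*, *Stmn2* and *Tubb3* stood 1 lower in every NPM1 KD library (adjusted p = 0.0791 for each). The part of these markers in the splicing gene results was not tested, and in RNA from a whole culture fewer cells of a type and less RNA per cell cannot be told apart. None of the 21 markers of fibroblasts, immune cells, glia and endothelium passed the filter, and the highest, *Cd74*, was at 3.

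The question was whether these splicing genes differed between CTR and NPM1 KD, family by family. Of the 67, 61 passed the filter, and none of them was called higher or lower at a limma adjusted p below 0.05 (against 0.487% of all tested genes in either direction). The lowest adjusted p was 0.0791. Most of the 61 kept their value: 31 (50.8%, against 40.2% of all tested genes) had the same rlog in all 6 libraries. In 5 members (8.2%, against 2.19% of all tested genes) all NPM1 KD libraries lay above all CTR libraries. In 1 member (1.64%, against 3.41%) all lay below. Together these were 6 of the 61, against 5.6% of all tested genes in either direction. The 5 were *Snrpd3* and *Snrpg*, which encode Sm proteins, *Prpf3* of the U4/U6 particle, the SR protein gene *Srsf3* and the hnRNP gene *Hnrnph2*, and the 1 lower was *Prpf40b*, related to a yeast U1 factor. *Prpf40b* passed the filter through its CTR libraries alone, so that its lower value is a description only. Each of these 6 was at 1 value throughout CTR and 1 step away throughout NPM1 KD. Over all tested genes, 296 had this form, 123 higher and 173 lower, and none of the 296 passed the threshold, at adjusted p between 0.0791 and 0.166. At an unadjusted p below 0.05 stood 5 of the 61 members higher and 2 of the 61 lower, against 6.07% and 8.07% of all tested genes.

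**Figure D1:**
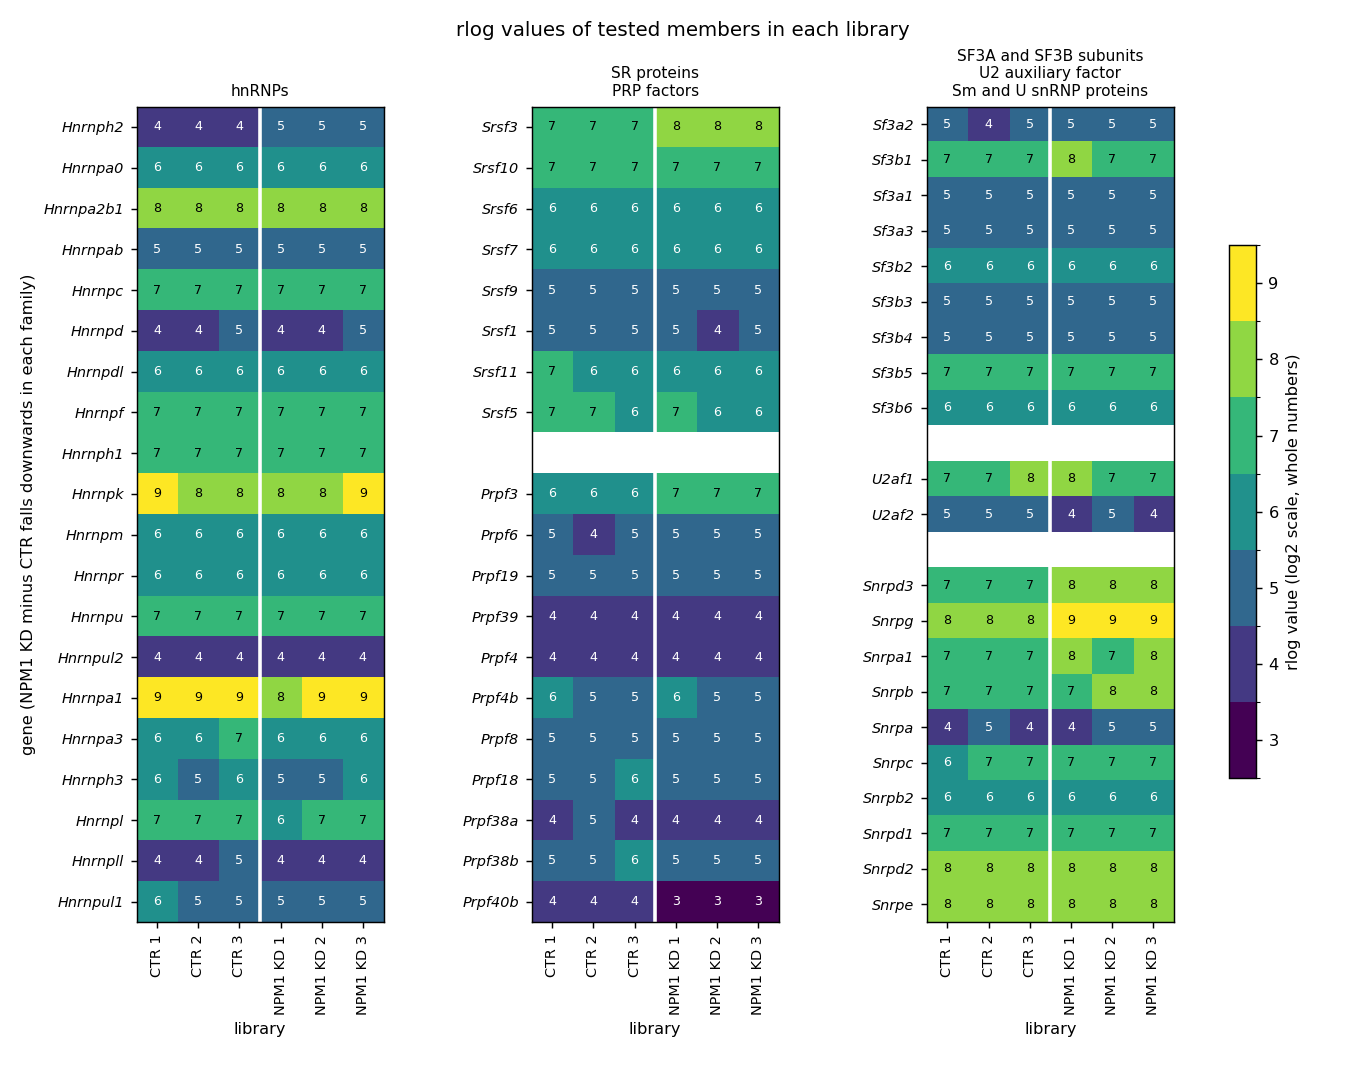
The rlog values of the tested members reported here (rows, log2 scale, colour and number) in the 3 CTR and 3 NPM1 KD libraries (columns, divided by the white line), with members of a family ordered by NPM1 KD minus CTR. Values are to be read along a row, since rlog values are not corrected for transcript length. The 5 genes *Hnrnph2*, *Srsf3*, *Prpf3*, *Snrpd3* and *Snrpg* are a step of 1 higher in each NPM1 KD library, and *Prpf40b* is a step of 1 lower.

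Whether these 6 members passed the threshold depended on how rounding was handled. With variances within groups raised to 0.0833, the variance that rounding adds, the 6 members missed the threshold, as did all 296 genes of this form. Such genes do not vary within a group, so that settings of the fit, this allowance among them, decided the outcome and not the gene. Without that allowance the estimated spread of such genes is 0, and all 6 passed (limma adjusted p from 1.01e-11 to 3.58e-11 for the 5 higher genes, and 2.44e-09 for *Prpf40b*), together with 2.14% of all tested genes higher and 3.09% lower. With the allowance but without the trend of variance on level, the same 6 passed (limma adjusted p = 0.0304 for each), with 2.29% of all tested genes higher and 3.79% lower.

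The genes of the Sm ring and the U snRNPs were the family with the most higher values. Of the 10 tested, 6 had a higher mean rlog in NPM1 KD (60.0%, against 24.6% of all tested genes), 0 had a lower mean (against 27.4%), and 4 were equal, with none past the threshold. The family mean was 6.80, 7.0 and 6.90 in the CTR libraries and 7.20, 7.30 and 7.40 in the NPM1 KD libraries. The 3 NPM1 KD means thus lay above the 3 CTR means, with a difference of 0.40 on the log2 scale (6.90 ± 0.10 against 7.30 ± 0.10, SD, n = 3). Over all tested genes, the same difference was −0.02, with 5.31 in each CTR library and 5.30, 5.27 and 5.29 in NPM1 KD. Library means thus lay apart there too, downward, and they did so in some lists of other splicing genes given below. The median member differed by 0.33, against 0.00 for the median tested gene.

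The Sm ring is formed by 7 proteins around a uridine-rich stretch of the small nuclear RNA. *Snrpg* (ENSMUSG00000057278), which encodes SmG, was at 8, 8 and 8 in CTR and at 9, 9 and 9 in NPM1 KD, a difference of 1.0 (SE 0.34, limma adjusted p = 0.0791). *Snrpd3* (ENSMUSG00000020180), which encodes SmD3, was at 7, 7 and 7 in CTR and at 8, 8 and 8 in NPM1 KD (1.0, SE 0.35, limma adjusted p = 0.0791). The CTR and NPM1 KD libraries of both genes did not overlap. *Snrpb*, which encodes SmB, was at 7, 7 and 7 in CTR and at 7, 8 and 8 in NPM1 KD, so that 1 NPM1 KD library shared the CTR value (0.67, SE 0.35, limma adjusted p = 0.33). *Snrpd1* stayed at 7 in all libraries, and *Snrpd2* and *Snrpe* at 8. The ring members thus did not take a common step: over the 6 tested, the mean was 7.50 in every CTR library and 7.83, 8.0 and 8.0 in NPM1 KD. The remaining ring gene, *Snrpf*, was under the filter.

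The other 4 genes of the family encode proteins specific to U1 or U2. *Snrpa1*, which encodes U2-A′, was at 7, 7 and 7 in CTR and at 8, 7 and 8 in NPM1 KD (0.67, SE 0.35, limma adjusted p = 0.33). *Snrpa*, which encodes U1-A, was at 4, 5 and 4 in CTR and at 4, 5 and 5 in NPM1 KD. *Snrpc*, which encodes U1-C, was at 6, 7 and 7 in CTR and at 7 in each NPM1 KD library. *Snrpb2*, which encodes U2-B″, was at 6 throughout. In each of the first 3 the groups overlapped. These 4 had means of 5.75, 6.25 and 6.00 in CTR against 6.25, 6.25 and 6.50 in NPM1 KD. With *Snrpd3* and *Snrpg* left out of the family, the means of the remaining 8 were 6.62, 6.88 and 6.75 in CTR against 6.88, 7.0 and 7.12 in NPM1 KD, a difference of 0.25 in which the lowest NPM1 KD library and the highest CTR library were both at 6.88.

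**Figure D2:**
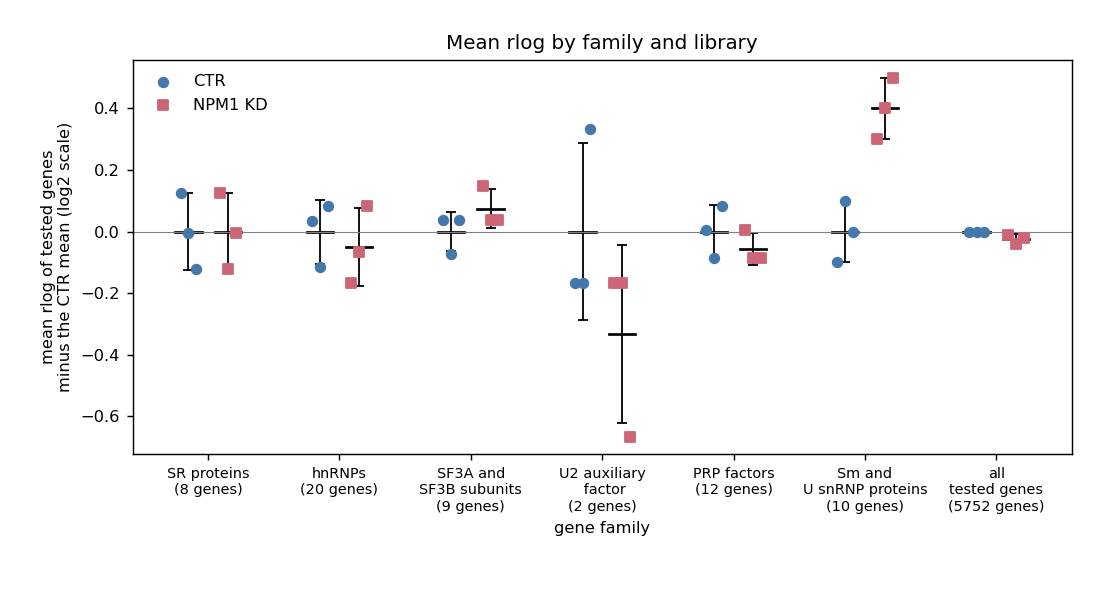
Mean rlog of the tested genes of each family in each library, minus the family's CTR mean (y axis, log2 scale), for CTR (circles) and NPM1 KD (squares), with the group mean and SD (n = 3 libraries) as black bars. The Sm and U snRNP family, at 0.40 above CTR, has all NPM1 KD libraries above all CTR libraries. The groups overlap or touch in the other 5 families, and the SR proteins differ by 0.00. Over all tested genes, the NPM1 KD libraries lie slightly below the CTR libraries (−0.02).

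The promoters of the 2 separated Sm genes are shown from 250 bases before to 50 bases after the RefSeq start (GRCm38.p6), 5′ to 3′ on the strand of the gene. *Snrpg* is read from chr6:86371290-86371589 on the plus strand and *Snrpd3* from chr10:75517792-75518091 on the plus strand. Capitals mark matches to 6 short motifs, searched on both strands: the CCAAT box (CCAAT), the GC box (GGGCGG), an ETS site (CCGGAAG), a YY1 site (AAGATGGCG), the E-box (CACGTG) and the TATA box (TATAAA).
Snrpg: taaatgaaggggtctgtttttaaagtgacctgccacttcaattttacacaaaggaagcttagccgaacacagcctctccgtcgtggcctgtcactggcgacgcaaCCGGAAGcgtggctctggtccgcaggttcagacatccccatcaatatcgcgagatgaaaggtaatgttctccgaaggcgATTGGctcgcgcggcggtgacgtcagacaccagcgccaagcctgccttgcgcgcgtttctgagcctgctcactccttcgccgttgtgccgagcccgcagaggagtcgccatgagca
Snrpd3: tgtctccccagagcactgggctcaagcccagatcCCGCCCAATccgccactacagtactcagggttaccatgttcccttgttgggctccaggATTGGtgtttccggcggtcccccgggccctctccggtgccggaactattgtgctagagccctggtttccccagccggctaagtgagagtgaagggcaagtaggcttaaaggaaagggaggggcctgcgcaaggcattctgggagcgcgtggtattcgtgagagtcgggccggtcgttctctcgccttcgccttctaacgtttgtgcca
The *Snrpg* window holds a CCAAT box and an ETS site. The *Snrpd3* window holds CCAAT boxes and a GC box, and 1 of the CCAAT matches shares bases with the GC box. The CCAAT box occurs in 41.1%, the ETS site in 9.93% and the GC box in 38.2% of the 27025 genes with a promoter in the RefSeq table.

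The U2 auxiliary factor reads the 3′ end of the intron. *U2af2*, the large subunit that binds the polypyrimidine tract, was at 5, 5 and 5 in CTR and at 4, 5 and 4 in NPM1 KD. This was the largest lower value among members whose groups overlapped (−0.67, SE 0.33, limma adjusted p = 0.33, unadjusted p = 0.0426). *U2af1*, the small subunit that contacts the terminal AG, was at 7, 7 and 8 in CTR and at 8, 7 and 7 in NPM1 KD, with equal means. *U2af1* shares 68.8% of its transcript at 99.7% identity with the pseudogene *Gm10232*, so that its reads may have been split or shared.

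The SF3A and SF3B subunits, which clamp U2 on the branch point, had the highest share of genes at a single value among the 6 families. Of 9 tested, 7 (77.8%, against 40.2% of all tested genes) had the same rlog in all 6 libraries. *Sf3a1*, *Sf3a3*, *Sf3b3* and *Sf3b4* were at 5, *Sf3b2* and *Sf3b6* at 6, and *Sf3b5* at 7. The other 2 differed in 1 library each. *Sf3b1*, the large scaffold of SF3B, was at 7 in all libraries but NPM1 KD 1, where it was at 8. *Sf3a2* was at 5 in all libraries but CTR 2, where it was at 4. The family means were 5.67, 5.56 and 5.67 in CTR against 5.78, 5.67 and 5.67 in NPM1 KD, a difference of 0.07 on the log2 scale. A gene at 1 rounded value differs by less than 1 on the log2 scale between any of its libraries. For the 7 genes at a single value, the log2 of the authors' mean normalised count lay near a whole number (4.88 to 5.09, 6.05, 6.21 and 7.08). A small shift there can leave the rounded value as it was. For the 6 separated members it lay between their 2 rounded values, from 3.51 (*Prpf40b*) to 8.51 (*Snrpg*). The part of this position in which genes kept 1 value was not tested.

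The PRP factors shared no direction. Of 12 tested, 2 had a higher mean in NPM1 KD, 4 a lower mean and 6 equal means, and the family means differed by −0.06 (4.92, 4.83 and 5.00 in CTR against 4.92, 4.83 and 4.83 in NPM1 KD). *Prpf3* (ENSMUSG00000015748), a protein of the U4/U6 particle, was at 6, 6 and 6 in CTR and at 7, 7 and 7 in NPM1 KD (1.0, SE 0.35, limma adjusted p = 0.0791). *Prpf40b* (ENSMUSG00000023007) was at 4, 4 and 4 in CTR and at 3, 3 and 3 in NPM1 KD (−1.0, SE 0.39, limma adjusted p = 0.166). In both genes the groups did not overlap. *Prpf40b*, whose NPM1 KD libraries lay under the filter, had a mean normalised count of 11.4, the lowest of the tested members.

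The partner of *Prpf3* in the U4/U6 particle, *Prpf4*, was at 4 in all libraries, and *Prpf31*, the other U4/U6 protein of the family, was under the filter at 3 in all libraries. *Prpf6*, which bridges U4/U6 and U5, was at 5, 4 and 5 in CTR and at 5 in each NPM1 KD library. *Prpf8*, the U5 protein at the catalytic centre, and *Prpf19*, the ubiquitin ligase of the PRP19 complex, were at 5 throughout. *Prpf18*, needed for the second catalytic step, was at 5, 5 and 6 in CTR and at 5 in each NPM1 KD library, and *Prpf38b* had the same 6 values. *Prpf38a*, a factor of spliceosome activation, was at 4, 5 and 4 in CTR and at 4 in NPM1 KD. *Prpf39*, a U1-associated protein, was at 4 throughout, and the kinase gene *Prpf4b* was at 6, 5 and 5 in both groups. The 3 factors with lower NPM1 KD means besides *Prpf40b* each owed this to 1 CTR library.

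The promoters of *Prpf3* and *Prpf40b* are given because these were the PRP genes whose groups did not overlap, with the limit above on *Prpf40b*. *Prpf3* is read from chr3:95855836-95856135 on the minus strand and *Prpf40b* from chr15:99294991-99295290 on the plus strand (GRCm38.p6, the first start listed by RefSeq for each, with motifs in capitals as above).
Prpf3: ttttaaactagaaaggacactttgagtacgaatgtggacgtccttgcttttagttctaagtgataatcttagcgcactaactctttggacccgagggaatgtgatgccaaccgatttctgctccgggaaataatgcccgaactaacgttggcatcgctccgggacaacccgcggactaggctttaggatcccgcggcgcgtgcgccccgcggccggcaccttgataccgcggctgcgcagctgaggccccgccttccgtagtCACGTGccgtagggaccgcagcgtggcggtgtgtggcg
Prpf40b: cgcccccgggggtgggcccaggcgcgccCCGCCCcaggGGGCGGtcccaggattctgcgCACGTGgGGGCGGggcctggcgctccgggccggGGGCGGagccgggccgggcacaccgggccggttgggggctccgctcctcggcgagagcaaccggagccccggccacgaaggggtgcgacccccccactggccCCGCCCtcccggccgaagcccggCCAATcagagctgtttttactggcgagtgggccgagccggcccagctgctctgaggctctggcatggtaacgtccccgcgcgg
Both windows hold an E-box, a motif present in 8.09% of all genes with a promoter and in 9 (15.5%) of the 58 members with one. The *Prpf40b* window also holds GC boxes and a CCAAT box, and has a GC content of 78.3%, against 58.0% for *Prpf3*. These are matches of letters and do not show binding.

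The SR proteins had a mean difference of 0.00 (6.25, 6.12 and 6.00 in CTR against 6.25, 6.00 and 6.12 in NPM1 KD). *Srsf3* (ENSMUSG00000071172), the smallest SR protein and a factor in mRNA export, was the exception, at 7, 7 and 7 in CTR against 8, 8 and 8 in NPM1 KD (1.0, SE 0.35, limma adjusted p = 0.0791), with no overlap between the groups. A gene listed as *Srsf3-ps* has a transcript that matches 49.6% of the *Srsf3* transcript at 98.3% identity, and reads of the pair could have been split. *Srsf3-ps* was at 6, 7 and 7 in CTR and at 7 in each NPM1 KD library (0.33, SE 0.35, limma adjusted p = 0.713), so that its groups overlapped. Both had a higher mean in NPM1 KD.

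The other 7 tested SR genes held their value or had a lower mean in NPM1 KD. *Srsf7*, a close relative of *Srsf3* that also takes part in mRNA export, was at 6 in all libraries, as was *Srsf6*. *Srsf9* was at 5 and *Srsf10*, which represses splicing when dephosphorylated, was at 7 throughout. *Srsf1*, the founding member, was at 5 in all libraries but NPM1 KD 2, where it was at 4. *Srsf5* was at 7, 7 and 6 in CTR and at 7, 6 and 6 in NPM1 KD, and *Srsf11* at 7, 6 and 6 in CTR and at 6 in each NPM1 KD library. Each of the last 3 differed by −0.33, and the groups of each overlapped (limma adjusted p = 0.713).

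The *Srsf3* promoter is the only one of the 6 separated genes with a TATA box, which 15.7% of all genes with a promoter have. It is read from chr17:29032410-29032709 on the plus strand (GRCm38.p6).
Srsf3: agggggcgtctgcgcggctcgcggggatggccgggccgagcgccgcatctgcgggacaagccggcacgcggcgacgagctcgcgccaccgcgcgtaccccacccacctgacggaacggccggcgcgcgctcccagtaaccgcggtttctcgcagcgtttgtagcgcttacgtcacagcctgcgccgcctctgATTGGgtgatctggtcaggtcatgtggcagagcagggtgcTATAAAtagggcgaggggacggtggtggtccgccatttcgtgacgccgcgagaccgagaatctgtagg
It holds a CCAAT box as well and no GC box, whereas 10 of the 11 SR genes (90.9%) and 38.2% of all genes with a promoter have a GC box in this window.

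The hnRNPs had 11 of 20 genes (55.0%) at the same value in all libraries, 6 with a lower NPM1 KD mean, 2 with equal means and 1 with a higher mean. The family means were 6.20, 6.05 and 6.25 in CTR against 6.00, 6.10 and 6.25 in NPM1 KD, a difference of −0.05. *Hnrnph2* (ENSMUSG00000045427), which binds runs of G, was the gene with a higher mean, at 4, 4 and 4 in CTR and at 5, 5 and 5 in NPM1 KD, with no overlap (1.0, SE 0.33, limma adjusted p = 0.0791). The other members of its subfamily did not show this step. *Hnrnph1* and *Hnrnpf* were at 7 in all libraries, and *Hnrnph3* was at 6, 5 and 6 in CTR and at 5, 5 and 6 in NPM1 KD.

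The A and B type hnRNPs, which bind UAG-like motifs and block nearby splice sites, included *Hnrnpa2b1* at 8 and *Hnrnpa0* at 6 in all libraries. *Hnrnpa1* was at 9 in all libraries but NPM1 KD 1, where it was at 8. The pseudogene *Hnrnpa1l2-ps2*, 97.7% identical over 39.2% of the *Hnrnpa1* transcript, was also 1 lower in NPM1 KD 1 alone, at 8, 8 and 8 in CTR against 7, 8 and 8 in NPM1 KD. *Hnrnpa3* was at 6, 6 and 7 in CTR and at 6 in each NPM1 KD library. Its transcript shares at least 20.9% of its length at 99.3% identity or more with 4 listed genes, *Gm5641*, *Gm6161*, *Gm9242* and *Gm6254*, so that its value is uncertain. The same holds for *Hnrnpf*, which 2 listed pseudogenes match over 42.3% and 42.4% of the transcript, and for *Sf3b4*, which *Gm7935* matches over 66.7%.

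*Hnrnpc*, which binds uridine tracts, and *Hnrnpu*, a nuclear scaffold protein, were at 7 in all libraries. *Hnrnpm*, *Hnrnpr* and *Hnrnpdl* were at 6, *Hnrnpab* at 5 and *Hnrnpul2* at 4 throughout. *Hnrnpk*, which binds C-rich RNA, was at 9, 8 and 8 in CTR against 8, 8 and 9 in NPM1 KD, and *Hnrnpd* was at 4, 4 and 5 in both groups. *Hnrnpl*, which binds CA repeats, was at 7 in all libraries but NPM1 KD 1, at 6. Its relative *Hnrnpll* was at 4, 4 and 5 in CTR and at 4 in NPM1 KD, and *Hnrnpul1* was at 6, 5 and 5 in CTR and at 5 in NPM1 KD. All 6 hnRNP genes with a lower mean differed by −0.33 with overlapping groups (limma adjusted p = 0.713). In *Hnrnpa1* and *Hnrnpl* the whole difference lay in NPM1 KD 1.

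**Figure D3:**
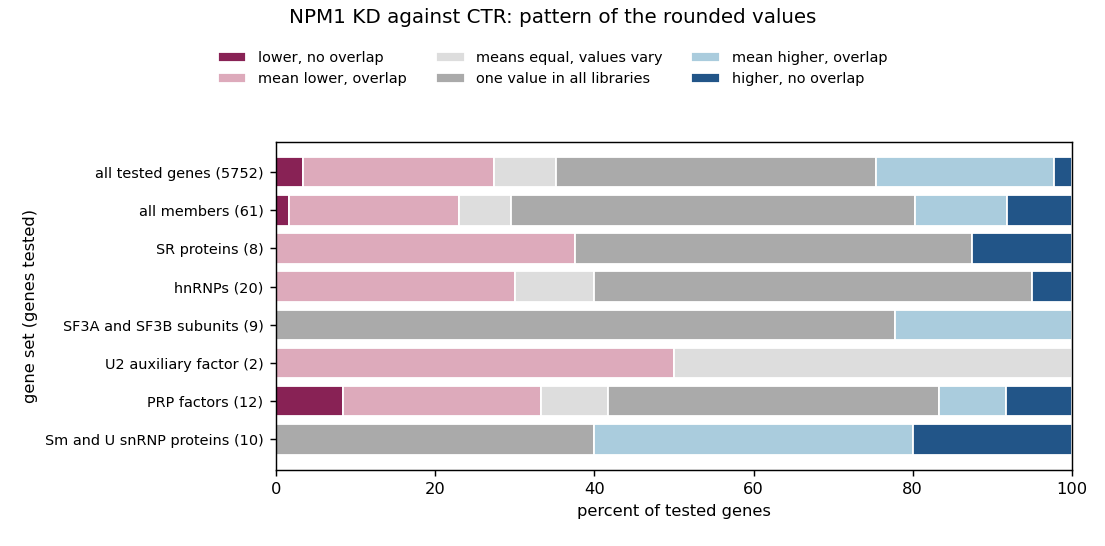
Share of tested genes (x axis, percent) in each pattern of rounded values, for all tested genes, all members and each family (y axis, number tested in parentheses). The Sm and U snRNP family has no gene with a lower NPM1 KD mean, the SF3A and SF3B family has 77.8% of genes at a single value, and the hnRNPs have 6 of 20 genes with a lower mean.

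The *Hnrnph2* promoter, from chrX:134600929-134601228 on the plus strand (GRCm38.p6), is shown because this gene stood apart from its subfamily.
Hnrnph2: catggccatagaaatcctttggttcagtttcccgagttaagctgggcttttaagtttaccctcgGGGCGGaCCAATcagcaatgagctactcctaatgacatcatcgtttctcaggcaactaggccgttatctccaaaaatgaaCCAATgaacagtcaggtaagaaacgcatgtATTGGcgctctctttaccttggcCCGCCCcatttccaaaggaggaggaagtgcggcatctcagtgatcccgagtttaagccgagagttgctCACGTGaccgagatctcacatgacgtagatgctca
It holds CCAAT boxes, GC boxes and an E-box. Over all members, 58 of 67 matched the promoter table. The CCAAT box was present in 29 of them (against 41.1% of all genes with a promoter), the GC box in 40 (69.0% against 38.2%) and the ETS site in 20 (34.5% against 9.93%). Families differed in what they held: the ETS site was in 6 of 7 SF3A and SF3B promoters (85.7%) and in 2 of 18 hnRNP promoters (11.1%), and the CCAAT box was in 13 of 18 hnRNP promoters (72.2%) and in 3 of 9 Sm and U snRNP promoters (33.3%). Of the 6 separated genes, 5 held a CCAAT box in at least 1 of their listed starts, among them the lower gene *Prpf40b*, and 12 of 26 genes with a single value (46.2%) did. A higher GC content (median 60.5% of bases in member promoters, 52.7% in all promoters) goes with the matches to G- and C-rich motifs, and its part in these shares was not tested.

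The 6 members under the filter had no test. *Srsf12* was at 0 in all libraries. *Srsf2* ranged from 0.46 to 0.74, *Srsf4* from −0.54 to −0.35 and *U2af1l4* from −0.69 to −0.51, values at which rlog shrinks differences strongly, and in none of them were the groups apart by more than 0.11. *Snrpf*, the ring gene that encodes SmF, was at 1, 1 and 1 in CTR and at 2, 1 and 2 in NPM1 KD, with a mean normalised count of 2.74. *Prpf31* was at 3 in all libraries. In the GENCODE M21 annotation (GRCm38), exons of other genes cover 85.4% of the exon bases of *Snrpf*, 66.1% of *U2af1l4*, 43.0% of *Srsf4*, 25.3% of *Srsf2* and 18.1% of *Prpf31*. The overlap was 34.1% for the median of the 6, and 0.00% for the median of the 61 tested members, which ranged up to 29.1% (*Hnrnpab*). The genes over *Snrpf*, *Srsf4*, *Srsf2* and *Prpf31* lie on the opposite strand, among them *Ccdc38* over *Snrpf* and *Mfsd11* and *Mettl23* over *Srsf2*. The strand setting of the authors' counting, and what it did with reads that fall on 2 genes, are not given in the sources used here, so the part of overlap in these low values was not tested and they say little about expression. Of the 6 separated members, 5 had no overlap and *Snrpd3* had 6.74%, but 4 had near-identical transcripts elsewhere. Besides *Srsf3*, these were *Hnrnph2*, 97.8% identical to *Gm8775* over 33.7% of its transcript, *Snrpg*, with 4 such genes over 21.3% to 29.9%, and *Prpf3*, with *Gm11809* over 18.5%, so that their reads too may have been split or shared. Of the copies of *Hnrnph2*, *Snrpg* and *Prpf3*, only *Gm11809* was among the genes listed, at a mean normalised count of 0.174.

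**Figure D4:**
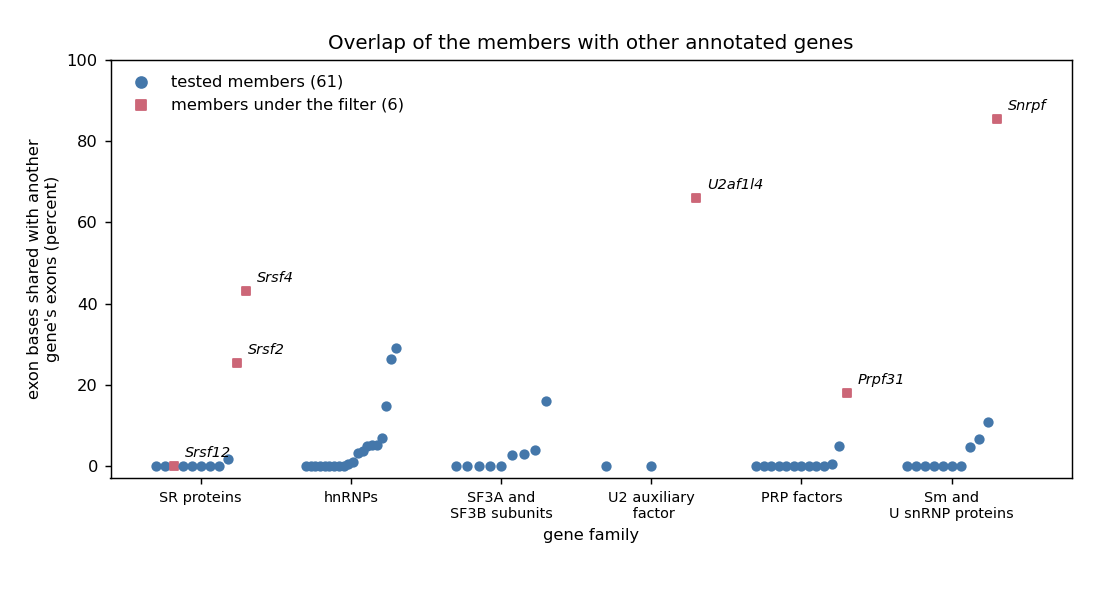
Percent of each member's exon bases that lie in exons of another annotated gene (y axis, GENCODE M21), by family (x axis), for the 61 tested members (circles) and the 6 under the filter (squares, named). Of the 6, 5 lie at 18.1% or more, whereas the tested members reach 29.1% at most and have a median of 0.00%.

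Splicing genes under other names were read from the same test to set these families in context. Of 122 genes in 11 lists, 97 passed the filter. None was called (against 0.0695% higher and 0.417% lower of all tested genes) and none was without overlap between the groups (against 2.19% and 3.41%). A higher mean was found for 32 (33.0%) and a lower mean for 13 (13.4%), against 24.6% and 27.4% of all tested genes. The 5 lists with higher means and no lower ones were the PRP19 complex with other proteins of the activated spliceosome (4 of 12), step 1 and step 2 factors (2 of 5), the exon junction complex (4 of 10), the SMN and PRMT5 complexes that load the Sm ring (4 of 9) and minor spliceosome proteins (2 of 3). U snRNP proteins under other names had 2 higher and 4 lower of 12, and LSm proteins, which form a ring like that of Sm proteins on U6, had 3 higher and 1 lower of 8. Partners of U2 at the branch point had 2 higher and 1 lower of 8, SR-related proteins had 5 higher and 1 lower of 13, kinases and transport factors of SR proteins had 0 higher and 2 lower of 5, and hnRNPs under other names had 4 higher and 4 lower of 12. At an unadjusted p below 0.05 stood 6 of the 97 genes higher and 0 lower, against 6.07% and 8.07% of all tested genes. The 6, named here after their values were seen, were *Snw1*, *Cdc5l* and *Plrg1* of the PRP19 complex, the step factors *Cwc25* and *Dhx38*, and *Smn1*, which encodes the SMN protein. *Smn1* was at 5, 5 and 6 in CTR and at 6 in each NPM1 KD library (0.67, SE 0.34, limma adjusted p = 0.33), so that its groups overlapped.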

How the data were processed

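RNA from N2a cells (3 CTR and 3 NPM1 KD libraries) was sequenced as long cDNA reads. The submitters' processing notes name minimap2, featureCounts and DESeq2, without versions, and genome build GRCm39. The authors deposited an rlog score for every gene in each library, given on a log2 scale and whole from 1 upwards. The authors' mean normalized count per gene, another value deposited in a separate table, was used only as a level. That table also holds fold changes, p-values and adjusted p-values of the authors' own comparison, which were not used. Total reads per library were not analysed here. The authors' mean normalised counts add up to 841220, with a median of 28.4 over tested genes.

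Of 26913 entries, 257 that repeat a gene ID were dropped. Testing used limma 3.58.1 under R 4.3.3 on genes whose mean rlog reached log2 of 10 (eBayes after lmFit, with a trend of variance on level, variances raised to at least 0.0833, two-sided, Benjamini-Hochberg over 5752 genes, threshold 0.05). On simulated rounded data this fit made more false calls than the threshold allows at the smallest spread between replicates. Alternatives were no variance floor, no trend, a stricter filter (20) or none, centred libraries, each library left out, and a replicate block. Families were described by counts and by mean rlog per library, with no test. Near-identical transcripts were searched with BLAST 2.17.0 (at least 90% identity over 200 bases), and promoters were taken from RefSeq (GRCm38.p6). All members entered the counts and family means, values of 1 tested PRP factor and of some markers are not reported here, and full statistics were given for those whose groups did not overlap or whose unadjusted p was below 0.05. The symbol rule uses no values, but these families, the lists and the tests were chosen with earlier results of these data known.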

Additional observations from a re-analysis of the deposited data

How the results depend on the processing

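Rounding to whole numbers and 3 libraries per group limit these results: *U2af2* and the 6 separated members kept their direction under the alternatives that could be run for them, but whether the 6 passed the threshold changed. Members with smaller differences were not followed singly. Without the variance floor, 123 genes were called higher and 178 lower (2.14% and 3.09% of those tested), and without the intensity trend 132 and 218 (2.29% and 3.79%), against 4 and 24. Under both, 5 members were called higher (1 SR protein, 1 hnRNP, 1 PRP factor, 2 Sm proteins) and 1 PRP factor lower, with limma adjusted p of 0.0304 for each without the trend. With no filter on low values, 1 gene was called higher and 10 lower. Leaving out each library in turn gave 0 to 2 genes higher and 5 to 9 lower, and no member. The fewest calls, 0 higher and 5 lower, came without CTR 1 or without CTR 2.

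The PRP mean difference of −0.06 became 0.08 under the stricter filter, which removes *Prpf40b*, *Prpf38a*, *Prpf4* and *Prpf39*. The SR and hnRNP means, near 0, changed sign when single libraries were left out (−0.06 to 0.06 and −0.12 to 0.01), and the Sm and U snRNP mean stayed between 0.35 and 0.45. With the replicate number as a block, 1 gene was called higher, 7 lower and no member. Pairing was checked on each library's deviations from its group's gene means, over the 3442 tested genes that varied. These deviations correlated at 0.000586 to 0.0297 in the 3 same-numbered pairs. By this measure 3 of 6 libraries correlated best with their own number, so the numbers were not taken as pairs.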
